A study of Mus musculus with 14 samples.

Results

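Smooth-muscle contractile genes and their close relatives were described across mouse ovarian tumour cells that differ in focal adhesion kinase (FAK) and in β-catenin. The set holds 10 of the 35275 genes in the expression table, namely the LIM-domain genes Csrp2 and Csrp1, the muscle actins Acta2 and Actg2, and the actin-binding or motor genes Tagln, Cnn1, Myl9, Tpm1, Tpm2 and Cald1. They were chosen by name around Csrp2, and Csrp2 itself was picked for its level in cells with active β-catenin, so its values in that line are given as a description with no test. RNA was sequenced from 14 samples of KMF cells, C57Bl6 mouse ovarian cancer cells derived from ID8 cells by passage in mice, all grown as anchorage-independent tumorspheres for 5 days with no treatment. KMF wildtype cells gave 3 samples, and KMF FAK-/- cells of clone KT13, called FAK KO here, gave 3. The other three lines were all made in KT13, so each carries its altered Ptk2 alleles: FAK-WT re-expresses lentiviral GFP-FAK (3 samples), FAK-R454 expresses the kinase-inactive mutant GFP-FAK-R454 (2 samples), and β-catenin ΔGSK expresses active beta-catenin (3 samples). FAK KO is a single clone made with CRISPR, and the re-expressing lines were drug-selected and enriched by flow cytometry, so clone and vector effects cannot be told apart from those of the genotype in these comparisons. The study's methods describe the KMF samples as taken at various cell passages. For the lines made in KT13, neither the labels nor the methods name separate cultures, so p-values there measure only the spread between these samples, which may be technical.

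A contractile smooth muscle cell runs on a paired system of thin and thick filaments. Thin filaments of muscle actin (Acta2, Actg2) are lined by tropomyosins (Tpm1, Tpm2) and bound by caldesmon (Cald1), calponin (Cnn1) and transgelin (Tagln), and myosin II, whose regulatory light chain is Myl9, pulls on them once the light chain is phosphorylated. Many of these genes are switched on by serum response factor (SRF) bound to CArG boxes, with myocardin or the myocardin-related factors (MRTFs) as partners. Csrp1 and Csrp2 encode LIM-only cysteine-rich proteins that bind actin filaments and α-actinin, and Csrp2 is best known from arterial smooth muscle. Tpm1 and Cald1 also make non-muscle isoforms that nearly all cells with stress fibres use, and expression per gene does not separate isoforms.

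Promoter sequences were available from RefSeq (mouse GRCm38.p6) for 7 of the 10 genes, in 9 entries that run from 250 bases before to 50 bases after the start of transcription. They were searched on both strands for the strict CArG box, CCWWWWWWGG with W for A or T. A separate search was for CTTTGAT or CTTTGAA, the core that TCF and LEF factors bind. A strict CArG box was present in 1 of the 7 genes, Myl9, with its first base 161 bases before the start. Of the 32851 promoters of that length, 1.63% held one. None of the 7 held CTTTGAT or CTTTGAA, which 8.65% of all promoters held. Csrp2, Tagln and Actg2 were not searched. A match of letters is a description and not a bound site. The 250 bases before the start are shown 5′ to 3′ for Myl9 as the gene with the match (chr2:156775214-156775463, + strand), for Tpm1 as the most abundant member in the β-catenin ΔGSK line (chr9:67049214-67049463, − strand) and for Acta2 as the α-actin of smooth muscle (chr19:34255374-34255623, − strand). Capitals mark the CArG box.
Myl9: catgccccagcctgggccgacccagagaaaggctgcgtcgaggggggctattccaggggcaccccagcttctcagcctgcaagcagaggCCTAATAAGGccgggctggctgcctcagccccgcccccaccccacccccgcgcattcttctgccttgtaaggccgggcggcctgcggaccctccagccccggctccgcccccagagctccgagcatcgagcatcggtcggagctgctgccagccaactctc
Tpm1: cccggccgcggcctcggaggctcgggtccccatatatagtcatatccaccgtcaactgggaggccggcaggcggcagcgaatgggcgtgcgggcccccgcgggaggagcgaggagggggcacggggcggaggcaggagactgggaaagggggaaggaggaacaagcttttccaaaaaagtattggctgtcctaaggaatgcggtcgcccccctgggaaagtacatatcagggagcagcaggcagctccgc
Acta2: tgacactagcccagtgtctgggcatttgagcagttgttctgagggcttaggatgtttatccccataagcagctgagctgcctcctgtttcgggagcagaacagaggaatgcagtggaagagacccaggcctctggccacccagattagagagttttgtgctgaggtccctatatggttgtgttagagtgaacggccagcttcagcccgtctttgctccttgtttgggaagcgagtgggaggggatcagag
Neither of the last pair holds the strict motif, which says only that these letters are not in these windows. Looser forms with a C or G in the core, such as ccctatatgg and ccttgtttgg in the Acta2 window, were not counted. Their absence from the count does not mean that Acta2 lacks a CArG box.

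Levels were deposited as FPKM, the fragment count of a gene scaled by its length and by the depth of the library, which allows levels to be compared between genes. The libraries held from 25390558 to 35289859 fragments assigned to genes (median 28720224). As a check of the labels, Axin2, a feedback gene of canonical Wnt signalling, was 0.822 FPKM in FAK KO and 109.6 in β-catenin ΔGSK. Ptk2, which encodes FAK, was 15.5 FPKM in β-catenin ΔGSK, 19.0 in FAK KO, 24.3 in KMF, 43.4 in FAK-WT and 62.4 in FAK-R454, and this count over the whole gene does not separate edited alleles from wild-type FAK. The KMF libraries are labelled as ovarian cancer cells. Between 6 and 7 of 7 mesothelial and ovarian surface markers were above 1 FPKM in each line, 3 of 6 epithelial markers were (the keratins Krt8, Krt18 and Krt19), and the epithelial markers Cdh1, Epcam and Krt7 were not. The haematopoietic marker Ptprc was at most 0.00253 FPKM on average in any line, whereas Cd68 of the same list was between 1.32 and 8.62 FPKM.

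The 10 genes fell into 3 groups by level. Csrp1, Tpm1 and Cald1 were above 1 FPKM in each of the 5 lines, as were 10732 genes of the table. Csrp2 and Tagln were above 1 FPKM on average in β-catenin ΔGSK only, which held for 169 genes, and the 5 genes Acta2, Actg2, Cnn1, Myl9 and Tpm2 were below 1 FPKM in every line. Thus the genes most specific to contractile smooth muscle were low or undetected in all 14 libraries. Fewer expressing cells and less RNA per cell cannot be told apart in these bulk samples.

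**Figure D1:**
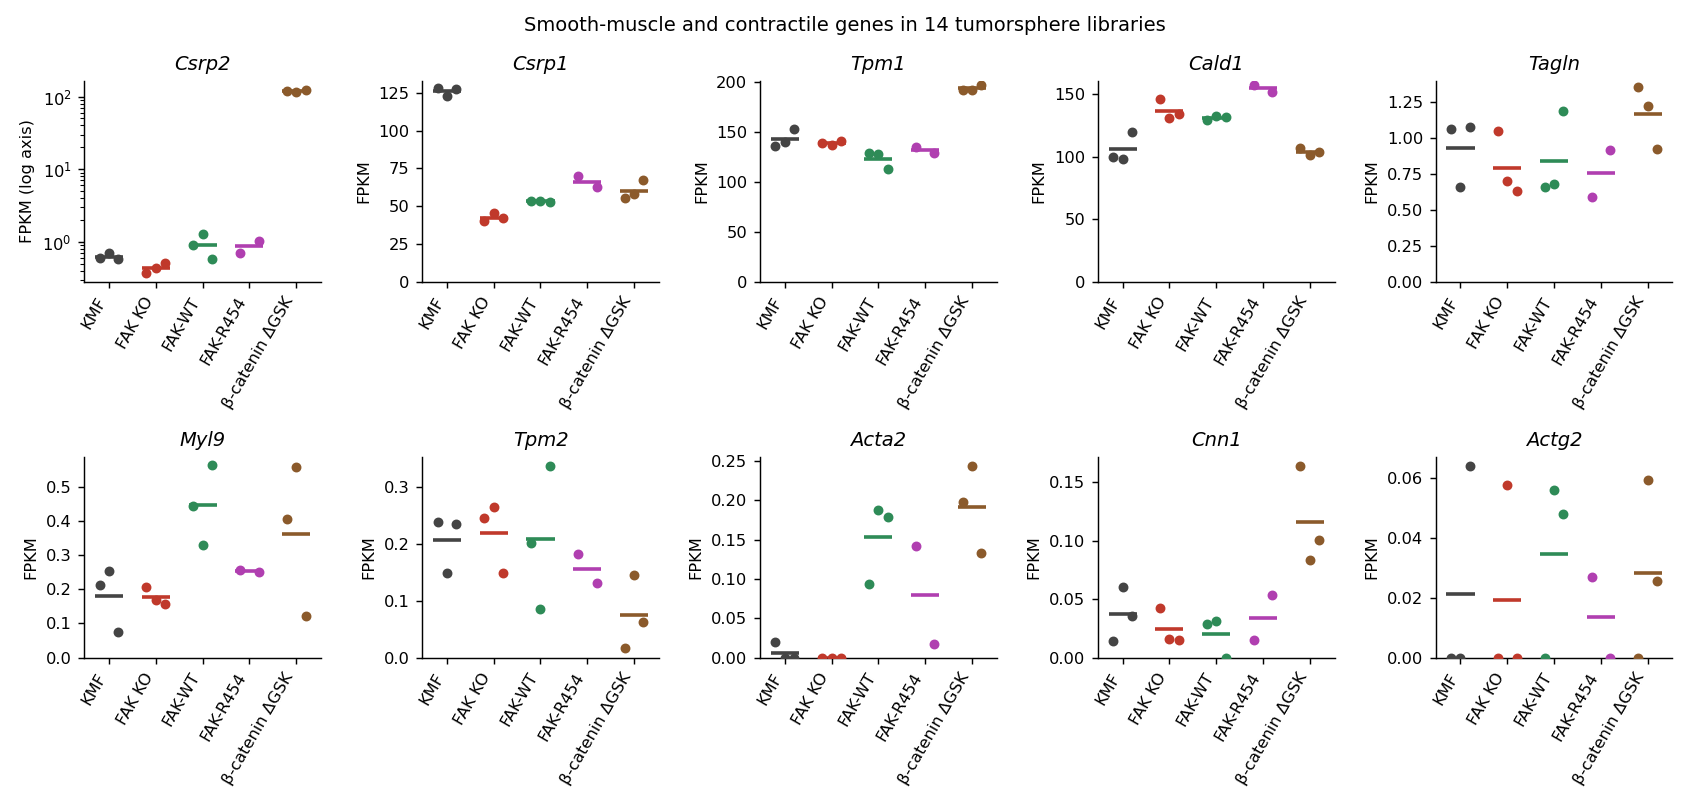
Expression in FPKM (vertical axes, each gene on its own scale, logarithmic for Csrp2 and linear from 0 for the rest) of the 10 genes in each of the 14 libraries, by line, with a point per library and a bar at the mean of the line. The 3 β-catenin ΔGSK libraries lie between 113.9 and 122.4 FPKM for Csrp2, and all other libraries lie at or below 1.26.

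Csrp2 (ENSMUSG00000020186, chr10:110920177-110939599, + strand) was 119.7, 113.9 and 122.4 FPKM in the 3 β-catenin ΔGSK libraries, on 3306, 2815 and 3505 fragments. It was 0.376, 0.434 and 0.514 FPKM in FAK KO, on 11, 11 and 14 fragments. The KMF libraries gave 0.601, 0.699 and 0.582, the FAK-WT libraries 0.896, 1.26 and 0.589, and the FAK-R454 libraries 0.703 and 1.04. So Csrp2 passed from near the detection limit to a level close to that of Csrp1 in KMF cells (126.3 FPKM). The mean of 118.7 ± 4.32 FPKM (SD, n = 3) was 269.1 times that of FAK KO, 189.1 times that of KMF, 136.3 times that of FAK-R454 and 129.6 times that of FAK-WT. The lowest β-catenin ΔGSK library was still 90.19 times the highest FAK-WT library. On the log2(FPKM + 0.1) scale the rise over FAK KO was 7.79, and the log2 of the ratio of means was 8.07, since the added constant understates changes from low levels.

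Only 2 genes of the table were above 100 FPKM in β-catenin ΔGSK and below 1 FPKM in each of the other 4 lines, Csrp2 and Igfbp5 (460.1 FPKM), a secreted binding protein of insulin-like growth factors. They were singled out after their values were seen.

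Among the other lines the means of Csrp2 were all below 1 FPKM. Its mean was 0.916 ± 0.338 FPKM (SD, n = 3) in FAK-WT, 0.871 ± 0.237 (SD, n = 2) in FAK-R454, 0.628 ± 0.0628 (SD, n = 3) in KMF and 0.441 ± 0.0696 (SD, n = 3) in FAK KO. FAK-WT overlapped FAK-R454 and KMF, and the FAK KO libraries lay below all others. Csrp2 did not pass the filter of 1 FPKM in these comparisons. Without that filter the log2 fold change over FAK KO was 0.86 in FAK-WT (adjusted p = 0.0757 from limma), 0.83 in FAK-R454 (adjusted p = 0.115) and 0.43 in KMF (adjusted p = 0.145), and none passed the threshold of 0.05. FAK-WT and FAK-R454 did not differ beyond their spread (adjusted p = 0.963 from limma).

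The genes around Csrp2 did not share its range. Zdhhc17, a palmitoyltransferase gene that begins 2183 bases after Csrp2 ends, was 9.02 ± 1.36 FPKM in FAK KO and 6.44 ± 0.685 in β-catenin ΔGSK (SD, n = 3 each). E2f7, a repressor of the cell cycle that ends 132793 bases before Csrp2, was 0.759 ± 0.122 in FAK KO and 2.36 ± 0.0521 in β-catenin ΔGSK (SD, n = 3 each). Over the expressed genes within 1000000 bases, the log2 ratio of means of β-catenin ΔGSK to FAK KO ran from -0.586 (Bbs10) to 1.64 (E2f7), where that of Csrp2 was 8.07, all with no pseudocount.

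The 5 genes whose pattern over the 5 line means lay nearest to that of Csrp2, by the root mean square difference of centred log2 values among 12251 genes, were Tnfrsf19 (0.391), Gng11 (0.434), H2-Q1 (0.451), Nkd1 (0.497) and Stra6 (0.524). All 5 had means below 0.3 FPKM in the other 4 lines. Their means in β-catenin ΔGSK were below that of Csrp2, with 12.5 ± 1.23 FPKM for Tnfrsf19, a receptor of the TNF family, and 9.89 ± 0.698 for Nkd1, an inhibitor of Wnt signalling (SD, n = 3 each). Stra6, the receptor for retinol-binding protein, reached 45.7 ± 4.19 FPKM (SD, n = 3), and H2-Q1 belongs to a family with similar copies, so its value is uncertain. None of them is a muscle gene of the lists used here.

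Csrp1 (ENSMUSG00000026421, chr1:135720061-135752232, + strand), the relative of Csrp2 found in most tissues, had another order of lines. It was 128.4, 122.6 and 127.8 FPKM in KMF and 39.96, 45.3 and 42.4 in FAK KO. It was 53.3, 53.5 and 52.7 in FAK-WT, 69.9 and 62.8 in FAK-R454, and 55.3, 58.3 and 67.1 in β-catenin ΔGSK. KMF thus stood above all other libraries and FAK KO below all others, and FAK-R454 overlapped β-catenin ΔGSK. Csrp1 was higher in KMF than in FAK KO by 1.57 on the log2 scale (SE 0.07, adjusted p = 8.15e-07 from limma). Relative to FAK KO it was higher by 0.64 in FAK-R454 (SE 0.08, adjusted p = 0.00148), by 0.50 in β-catenin ΔGSK (SE 0.09, adjusted p = 0.00126) and by 0.32 in FAK-WT (SE 0.06, adjusted p = 0.00589). In FAK-WT it was below the parental level, by 1.25 on the log2 scale against KMF (SE 0.05, adjusted p = 1.40e-05 from limma). The median of 664 genes tested on chromosome 1 was also lower there, at -0.341, and with each chromosome centred the difference was -0.92 (adjusted p = 4.01e-05), short of 2-fold. In KMF over FAK KO that median was 0.19 and the centred difference of Csrp1 1.37 (adjusted p = 5.01e-06). FAK-WT was lower than FAK-R454 by 0.32 (SE 0.06, adjusted p = 0.0327), a call that was lost without the FPKM filter (adjusted p = 0.0539), with chromosomes centred (adjusted p = 0.103) and without any of 4 single libraries (FAK-WT 1 and 2, FAK-R454 1 and 2, adjusted p from 0.0895 to 0.217).

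Of the summed FPKM of Csrp1, Csrp2 and Csrp3, Csrp2 made up 66.4% ± 1.91 in β-catenin ΔGSK (SD, n = 3), 1.69% in FAK-WT, 1.31% in FAK-R454, 1.03% in FAK KO and 0.496% in KMF. The family sum was 178.9 FPKM in β-catenin ΔGSK, 126.9 in KMF and 43.0 in FAK KO. Csrp3, the striated muscle member, was listed at 0 in every line. The LIM genes Crip1 and Crip2, which resemble these proteins, were abundant in all lines, and Crip1 rose from 266.5 to 465.8 FPKM in β-catenin ΔGSK over FAK KO (log2 fold change 0.80, adjusted p = 4.91e-04 from limma). It was as high in KMF, at 468.0 FPKM (0.78, adjusted p = 0.00497), and was 403.1 in FAK-WT (0.56, adjusted p = 0.0471 from limma), whose libraries overlapped those of FAK KO. In FAK-R454 it was 286.9 FPKM (0.11, adjusted p = 0.472 from limma).

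Tpm1 (ENSMUSG00000032366, chr9:67022590-67049406, − strand), the tropomyosin shared by muscle and non-muscle filaments, was 192.2, 191.8 and 196.9 FPKM in β-catenin ΔGSK. It was 138.6, 136.8 and 141.2 FPKM in FAK KO and 136.4, 139.6 and 153.0 in KMF. FAK-WT gave 129.0, 128.2 and 113.1, and FAK-R454 gave 135.0 and 129.5. The β-catenin ΔGSK libraries stood above all others, with no overlap, and FAK KO overlapped KMF. Tpm1 rose by 0.48 on the log2 scale in β-catenin ΔGSK over FAK KO (SE 0.05, adjusted p = 9.89e-05 from limma). The log2 fold change over FAK KO was 0.04 in KMF (adjusted p = 0.622 from limma), -0.07 in FAK-R454 (adjusted p = 0.407) and -0.17 in FAK-WT (adjusted p = 0.0752), where 1 fit over all 5 lines gave an adjusted p of 0.0368. FAK-WT against KMF gave -0.21 (adjusted p = 0.0581, and 0.0128 in the fit over all lines). The median of 659 genes tested on chromosome 9, which holds Tpm1, was also lower in that comparison, at -0.254.

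Cald1 (ENSMUSG00000029761, chr6:34598500-34775473, + strand), which encodes the caldesmon that restrains myosin on actin, moved the other way in β-catenin ΔGSK. It was 106.6, 101.1 and 103.4 FPKM there and 145.8, 130.5 and 133.8 in FAK KO. KMF gave 99.6, 97.8 and 119.7, FAK-WT 129.2, 132.0 and 131.4, and FAK-R454 157.3 and 151.4. FAK-R454 was thus the highest line, and KMF overlapped β-catenin ΔGSK at the low end. Cald1 fell by 0.40 on the log2 scale in β-catenin ΔGSK relative to FAK KO (SE 0.06, adjusted p = 8.26e-04 from limma). KMF was lower than FAK KO by 0.38 (log2 fold change -0.38, SE 0.09, adjusted p = 0.00812), but the median of 576 genes tested on chromosome 6 was also lower, at -0.338, and with each chromosome centred on its median the difference was -0.07 (adjusted p = 0.527). In β-catenin ΔGSK over FAK KO the median of chromosome 6 was -0.165, and the centred change of Cald1 was -0.20 (adjusted p = 0.0250).

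FAK-WT and FAK KO did not differ detectably in Cald1 (log2 fold change -0.06, adjusted p = 0.455 from limma), and the sign turned with median-of-ratios scaling (0.01) and with chromosomes centred (0.13). FAK-R454 against FAK KO gave 0.18 (adjusted p = 0.105 from limma), and without FAK KO library 1 this passed the threshold at 0.22 (adjusted p = 0.0243). FAK-WT was lower than FAK-R454 (log2 fold change -0.24, SE 0.05, adjusted p = 0.0374), which did not hold without the FPKM filter (adjusted p = 0.0644), with chromosomes centred (adjusted p = 0.498) or without any of 4 single libraries (FAK-WT 1 and 2, FAK-R454 1 and 2, adjusted p from 0.111 to 0.266). FAK-WT was higher than KMF by 0.31 (SE 0.08, adjusted p = 0.0209 from limma), which was lost with chromosomes centred (adjusted p = 0.102) and without FAK-WT 1 or 2 or KMF 1 or 2 (adjusted p from 0.0527 to 0.0808). Cald1 overlaps short antisense genes such as Npn2, which was at most 0.863 FPKM on average in any line.

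**Figure D2:**
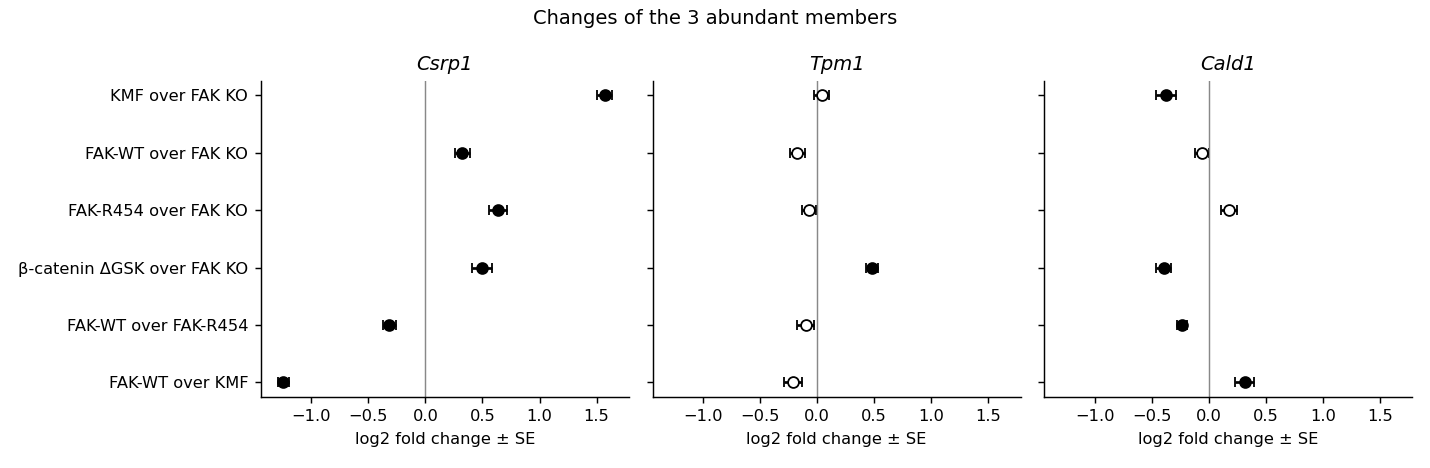
Log2 fold change (horizontal axis, log2(FPKM + 0.1) scale) of Csrp1, Tpm1 and Cald1 in the 6 comparisons between lines, with points at the limma estimate and bars of 1 standard error. Filled points have an adjusted p under 0.05. Csrp1 lies between 0.32 and 1.57 in the 4 comparisons with FAK KO, and Tpm1 and Cald1 take opposite signs in β-catenin ΔGSK.

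The counts over the set rest on 3 to 5 genes each and are given beside the share of all genes. In FAK-WT over FAK KO, 1 of 3 tested members was higher at any fold and 0 lower, where 15.6% of all genes were higher and 25.2% lower. In FAK-R454 over FAK KO 1 of 3 was higher and 0 lower, against 9.78% and 9.89% of all genes. In KMF over FAK KO 1 was higher and 1 lower of 3 (23.1% and 28.7% of all genes), and in FAK-WT over KMF 1 was higher and 1 lower of 3 (18.2% and 23.5%). In FAK-WT over FAK-R454 0 of 3 were higher and 2 lower, against 3.38% and 4.44% of all genes, and those calls, of Csrp1 and Cald1, were the unstable ones given above. In β-catenin ΔGSK over FAK KO 5 members passed the filter, Csrp2 and Tagln only through the β-catenin ΔGSK line, and apart from Csrp2 2 were higher and 1 lower, against 23.7% and 34.4% of all genes. At 2-fold or more, Csrp1 was the single member called on a test, higher in KMF than in FAK KO, as were 3.97% of all genes, and lower in FAK-WT than in KMF, as were 2.11%, the latter not at 2-fold with chromosomes centred. Libraries of 2 lines that did not overlap were common in this table. They were found for 56.1% of genes in FAK-WT over FAK KO, 55.1% in FAK-R454 over FAK KO, 64.2% in β-catenin ΔGSK over FAK KO, 60.8% in KMF over FAK KO, 48.5% in FAK-WT over FAK-R454 and 55.5% in FAK-WT over KMF.

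Tagln (ENSMUSG00000032085, chr9:45929628-45936058, − strand), an early marker of smooth muscle differentiation, did not follow Csrp2. It was 1.35, 1.22 and 0.921 FPKM in β-catenin ΔGSK, 1.05, 0.701 and 0.631 in FAK KO, and 1.06, 0.655 and 1.07 in KMF. FAK-WT gave 0.655, 0.681 and 1.18 FPKM, and FAK-R454 gave 0.590 and 0.916. Each line overlapped the next in order of level, on 26 to 61 fragments a library. Since Tagln passed the FPKM filter only through the β-catenin ΔGSK line, where it is highest, its test was taken from the fit without the filter, in which the log2 fold change over FAK KO was 0.51 (adjusted p = 0.146 from limma). With the filter the adjusted p was 0.0790 from limma, and adding the replicate number as a block brought it under 0.05. The end of Tagln overlaps that of Pcsk7 on the other strand, a gene at 9.62 FPKM in FAK KO and 10.9 in β-catenin ΔGSK, and since the strand setting of the counting is not given in the sources used here, fragments of Pcsk7 cannot be told apart from those of Tagln. The genes with the pattern nearest to Tagln were Rasip1, Trim2, Rpl29, Gm10180 and Sfpq, none of which is a smooth muscle gene of the lists, with root mean square differences from 0.0186 to 0.0306.

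Acta2 (ENSMUSG00000035783, chr19:34241090-34255336, − strand), the α-actin of smooth muscle, was read 0, 0 and 0 times in the FAK KO libraries and 1, 0 and 0 times in KMF. FAK-WT had 5, 9 and 10 fragments, FAK-R454 had 7 and 1, and β-catenin ΔGSK had 10, 11 and 7. The highest library was at 0.243 FPKM, so the gene was barely detected anywhere. A floor of 3 fragments over the FAK KO group was taken as the most that a count of 0 allows. The observed level of Acta2 was 9.44-fold that floor in β-catenin ΔGSK, 7.65-fold in FAK-WT and 3.78-fold in FAK-R454. These ratios allow for counting error in FAK KO only, not in the other line, so they are not lower limits. In FAK-R454, 7 of the 8 fragments came from library 1. Without it the line holds 1 fragment, so that no excess over the floor is left. Without the FPKM filter the adjusted p from limma was 6.94e-04 for β-catenin ΔGSK over FAK KO, 0.00501 for FAK-WT over FAK KO and 0.197 for FAK-R454 over FAK KO. FAK-WT also exceeded KMF (adjusted p = 0.00506 from limma), and KMF and FAK KO gave an adjusted p of 0.615. Near-identical actin genes can share fragments, and Actb and Actg1 were far more abundant, so these few fragments are uncertain.

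Myl9 (ENSMUSG00000067818, chr2:156775420-156781658, + strand), the regulatory light chain of smooth muscle myosin, had 15, 10 and 20 fragments in FAK-WT and 7, 5 and 5 in FAK KO. Its level was 0.447 ± 0.117 FPKM in FAK-WT and 0.178 ± 0.0249 in FAK KO (SD, n = 3 each), with no overlap, and without the FPKM filter the log2 fold change was 0.96 (adjusted p = 0.0306 from limma). β-catenin ΔGSK spread from 0.120 to 0.559 FPKM and overlapped every other line (adjusted p = 0.306 against FAK KO, limma). FAK-R454 was at 0.254 ± 0.00245 FPKM (SD, n = 2) and KMF at 0.181 ± 0.0937 (SD, n = 3). Myl9 resembles Myl12a and Myl12b closely, so its few fragments may include theirs.

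Cnn1 (ENSMUSG00000001349, chr9:22099281-22109630, + strand), the calponin of smooth muscle, had 11, 5 and 7 fragments in β-catenin ΔGSK and 3, 1 and 1 in FAK KO. The other lines had between 0 and 4 fragments a library. Its level was 0.116 ± 0.0424 FPKM in β-catenin ΔGSK and 0.0245 ± 0.0153 in FAK KO (SD, n = 3 each), which did not overlap (log2 fold change 0.78, adjusted p = 0.0171 from limma without the FPKM filter). Both levels are far below 1 FPKM.

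Tpm2 (ENSMUSG00000028464, chr4:43514711-43523765, − strand), the β-tropomyosin of muscle, was lowest where Tpm1 was highest. It had 1, 8 and 4 fragments in β-catenin ΔGSK and 16, 15 and 9 in FAK KO. The means were 0.0745 ± 0.0652 and 0.219 ± 0.0624 FPKM (SD, n = 3 each), and the log2 fold change of -0.92 did not pass the threshold without the FPKM filter (adjusted p = 0.0559 from limma). Actg2 (ENSMUSG00000059430, chr6:83512905-83536265, − strand), the γ-actin of enteric smooth muscle, had 0 to 3 fragments in each library, 0 in 7 of 14, and differences were not detectable at this depth. Without the filter, limma called 14.1% of 21741 genes higher and 21.6% lower in β-catenin ΔGSK over FAK KO, 8.31% higher in FAK-WT over FAK KO and 11.6% higher in FAK-WT over KMF, the background for the few calls of low members above.

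**Figure D3:**
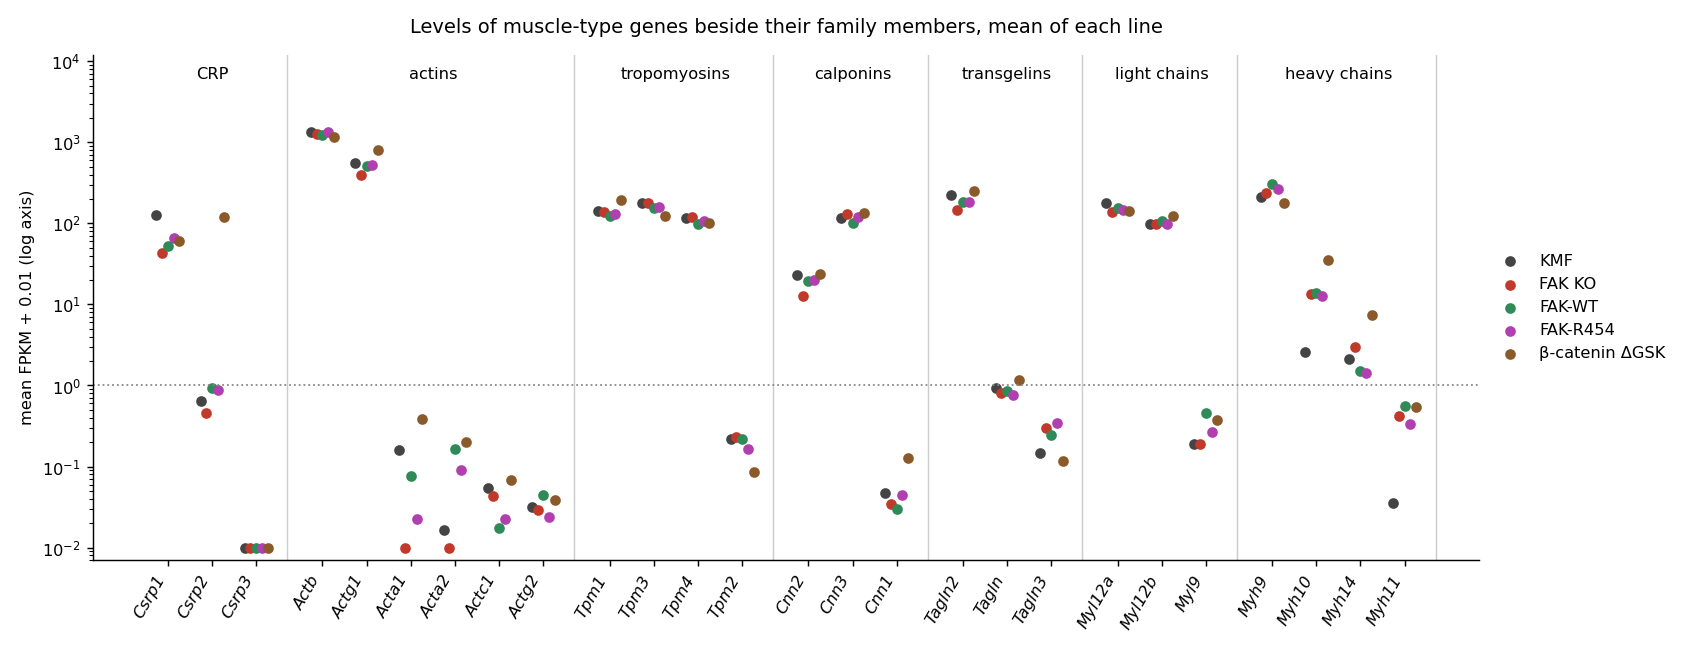
Mean FPKM plus 0.01 (vertical axis, logarithmic) of the genes of 7 families, with a point for each line and a dotted line at 1 FPKM. Within each family the muscle-type gene (Acta2, Actg2, Tpm2, Cnn1, Tagln, Myl9, Myh11) lies below its widely expressed relatives, and Csrp2 in β-catenin ΔGSK is the point that leaves that pattern.

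Set beside their families, the muscle-type genes made up a small part of the contractile transcripts. Muscle actins were at most 0.0437% of actin FPKM in any library, Cnn1 at most 0.103% of calponins, Tpm2 at most 0.0971% of tropomyosins, and Myl9 between 0.0259% and 0.219% of Myl9, Myl12a and Myl12b. Tagln was between 0.297% and 0.755% of transgelins. Myh11, the smooth muscle myosin heavy chain, was at most 0.295% of myosin II heavy chains.

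Several non-muscle relatives differed between β-catenin ΔGSK and FAK KO. Actg1, cytoplasmic γ-actin, rose from 396.7 ± 20.2 to 808.7 ± 14.9 FPKM (SD, n = 3 each; log2 fold change 1.03, SE 0.06, adjusted p = 2.45e-06 from limma), while Actb gave -0.12 (adjusted p = 0.108). Actg1 thus went from 23.7% ± 0.89 of actin FPKM in FAK KO to 40.7% ± 0.569 in β-catenin ΔGSK (SD, n = 3 each), with KMF and FAK-WT at 29.1% and FAK-R454 at 28.5%. Tpm1 went from 31.7% ± 1.02 to 46.4% ± 1.85 of tropomyosin FPKM (SD, n = 3 each), and Tpm3 fell by 0.52 on the log2 scale (adjusted p = 7.38e-05 from limma). The calponin Cnn2 rose by 0.91 (adjusted p = 1.44e-05 from limma) and the transgelin Tagln2 by 0.80 (adjusted p = 2.35e-05). Among myosin heavy chains Myh10, non-muscle myosin IIB, rose from 13.5 to 35.7 FPKM (log2 fold change 1.39, adjusted p = 2.50e-06 from limma) and Myh14, non-muscle myosin IIC, by 1.27 (adjusted p = 6.23e-05), while Myh9, myosin IIA, fell by 0.42 (adjusted p = 0.00976).

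Actg1, Cnn2 and Tagln2 were also higher than FAK KO in the lines with FAK. For Cnn2 the log2 fold change over FAK KO was 0.62 in FAK-WT (adjusted p = 4.23e-04 from limma), 0.65 in the FAK-R454 line (adjusted p = 0.00122) and 0.85 in KMF (adjusted p = 4.41e-05). Tagln2 gave 0.36, 0.34 and 0.65 in the same order, and Actg1 0.35, 0.42 and 0.47, all with an adjusted p under 0.05. These comparisons share the FAK KO samples. Myh10 was lower in KMF than in FAK KO, with 2.56 ± 0.297 FPKM in KMF against 13.5 ± 0.950 (SD, n = 3 each; log2 fold change -2.36, adjusted p = 9.45e-07 from limma) and 13.8 ± 1.94 in FAK-WT.

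Of 17 genes of the myosin II motor and its control, 14 were tested in β-catenin ΔGSK over FAK KO, and 4 were higher and 5 lower, near the 23.7% and 34.4% of all genes, with a median of -0.02 where that of all genes was -0.09. Mylk, the kinase that phosphorylates the light chain, was among the lower ones, at 0.533 ± 0.0803 FPKM against 1.72 ± 0.0822 in FAK KO (SD, n = 3 each; log2 fold change -1.53, adjusted p = 5.49e-04 from limma without the filter, which Mylk passed through FAK KO alone). It was higher than FAK KO in FAK-WT (3.93 ± 0.766 FPKM, SD, n = 3; log2 fold change 1.13, adjusted p = 0.00108), in FAK-R454 (3.97 ± 0.410, SD, n = 2; 1.16, adjusted p = 7.83e-04) and in KMF (4.29 ± 0.243, SD, n = 3; 1.27, adjusted p = 1.84e-05). The β-catenin ΔGSK line was therefore the lowest of the 5 for Mylk and the highest for Csrp2, Tpm1 and Actg1.

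A further list of 25 smooth muscle genes shared Myh11, Mylk and Ppp1r14a with the myosin II list, and the fall of Mylk is counted in both. Of the 25, 12 were tested in β-catenin ΔGSK over FAK KO, with 4 higher and 5 lower (median -0.05). Of all genes, 23.7% were higher and 34.4% lower. Npnt, an integrin ligand, rose by 1.52 (adjusted p = 2.88e-05 from limma), and Ramp1 fell by 1.75 (adjusted p = 3.02e-07). Synm, Itga7 and Mylk passed the FPKM filter of this comparison through a single line, and their p-values are from the fit without it. The counts above still include them, Synm among the higher genes and Itga7 and Mylk among the lower. The intermediate filament gene Synm, tested only through its level in β-catenin ΔGSK, was 0.280 FPKM in FAK KO and 1.12 in β-catenin ΔGSK (log2 fold change 1.68, adjusted p = 8.19e-04 from limma). Itga7, a laminin receptor of muscle, passed through FAK KO and was 4.74 FPKM there against 0.200 (log2 fold change -4.01, adjusted p = 6.87e-06 from limma). FAK-WT had 6 of 11 tested genes of this list higher than FAK KO and 1 lower (15.6% and 25.2% of all genes), and in FAK-R454 over FAK KO 6 of 11 were higher and 0 lower (9.78% and 9.89%). Smtn, an actin-binding gene of contractile smooth muscle that other cells also express, was 54.7 ± 6.96 FPKM in FAK-WT (SD, n = 3) and 51.7 ± 1.32 in FAK-R454 (SD, n = 2) against 23.3 ± 2.80 in FAK KO (SD, n = 3), with log2 fold changes of 1.23 and 1.15 (adjusted p = 1.99e-04 and 2.64e-04 from limma). Aebp1 was higher by 1.43 in FAK-WT (adjusted p = 2.13e-05 from limma). In KMF over FAK KO 6 of 11 were higher and 2 lower (23.1% and 28.7% of all genes), in FAK-WT over KMF 5 of 11 were higher and 0 lower (18.2% and 23.5%), and in FAK-WT over FAK-R454 1 of 11 was higher and 1 lower (3.38% and 4.44%).

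Of the upstream factors, Srf rose from 15.0 ± 1.40 FPKM in FAK KO to 30.3 ± 1.14 in β-catenin ΔGSK (SD, n = 3 each; log2 fold change 1.01, adjusted p = 1.48e-05 from limma). The MRTF genes Mkl1 and Mkl2 rose by 0.42 and 0.72 (adjusted p = 0.00561 and 9.77e-05), and Elk1 and Elk3, of the other family of SRF partners, fell by 0.47 and 0.83 (adjusted p = 0.00235 and 1.09e-04). Elk4, of the same family as Elk1 and Elk3, had a log2 fold change of -0.10 (adjusted p = 0.402 from limma). Of the 6 tested genes of SRF and its cofactors 3 were thus higher and 2 lower, against 23.7% and 34.4% of all genes, and in KMF over FAK KO 5 were higher and 0 lower (23.1% and 28.7%). The same 6 gave 3 higher and 1 lower in FAK-WT over FAK KO (15.6% and 25.2%), and 3 and 0 in FAK-R454 over FAK KO (9.78% and 9.89%). Srf was also higher than FAK KO by 0.61 in KMF (adjusted p = 0.00165) and by 0.33 in FAK-WT (adjusted p = 0.0236 from limma), and Mkl1 by 0.44 in FAK-WT (adjusted p = 0.00388) and by 0.55 in FAK-R454 (adjusted p = 0.00286 from limma). Mkl2 was lower than FAK KO in FAK-WT (log2 fold change -0.42, adjusted p = 0.0110 from limma). Myocd, the smooth muscle and heart cofactor, was at most 0.00926 FPKM on average in any line. Of 23 SRF and MRTF cytoskeletal targets 21 were tested, and 9 were higher and 4 lower, against 23.7% and 34.4% of all genes (median 0.19, against -0.09 for all genes). Some of these genes, such as Pdlim7 of the smooth muscle list, are also counted in the lists above, so the counts are not separate. Palld, an actin-bundling gene, rose by 1.85 (adjusted p = 1.16e-06 from limma) and Ctgf fell by 1.19 (adjusted p = 5.56e-04). In FAK-WT over FAK KO 9 of these 21 were higher and 2 lower (15.6% and 25.2% of all genes), in FAK-R454 over FAK KO 6 and 1 (9.78% and 9.89%), and in KMF over FAK KO 9 and 1 (23.1% and 28.7%). Ctgf rose by 1.13 in both FAK-WT and FAK-R454 (adjusted p = 0.00787 and 0.00484 from limma), and Fhl2 was higher by 2.70 in KMF (adjusted p = 4.25e-07).

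TGF-β, which induces smooth muscle genes in many cells, had its 12 ligand, receptor and pathway genes tested in each comparison. In β-catenin ΔGSK over FAK KO 1 was higher and 8 lower, where 23.7% and 34.4% of all genes were (median -0.54, against -0.09 for all genes). The receptor genes Tgfbr1 and Tgfbr2 fell by 1.50 and 1.19 (adjusted p = 2.26e-05 and 5.63e-07 from limma). Tgfbr1 was also lower than in FAK KO in KMF, by 1.12 (log2 fold change -1.12, adjusted p = 1.53e-05), and in FAK-WT (log2 fold change -0.78, adjusted p = 3.47e-04), whereas Tgfbr2 was higher in KMF by 0.19 (adjusted p = 0.0333 from limma). Tgfbr3, the co-receptor gene, was higher than FAK KO by 1.35 in FAK-WT (adjusted p = 3.44e-05) and by 1.36 in KMF (adjusted p = 5.09e-06), with 0.10 in β-catenin ΔGSK (adjusted p = 0.427 from limma). The ligand gene Tgfb3 was higher by 1.13 in KMF (adjusted p = 1.43e-05) and by 0.31 in β-catenin ΔGSK (adjusted p = 0.00203 from limma). Of the same list 3 were higher and 3 lower in FAK-WT over FAK KO (15.6% and 25.2% of all genes), and 2 were higher and 0 lower in FAK-R454 over FAK KO (9.78% and 9.89%). In KMF over FAK KO 4 were higher and 4 lower (23.1% and 28.7%). Of 10 canonical Wnt targets, 8 were tested in β-catenin ΔGSK over FAK KO and all 8 were called higher at 2-fold, as were 5.13% of all genes. Of these Axin2, Lgr5, Nkd1 and Notum were below 1 FPKM in FAK KO and passed the filter only through β-catenin ΔGSK, so the count is a check of the line and not a comparison with other genes. Lef1 and Sp5 were not tested, with Lef1 at 0.00350 FPKM in FAK KO and 0.00359 in β-catenin ΔGSK, and Sp5 at 0.0333 and 0.433.

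**Figure D4:**
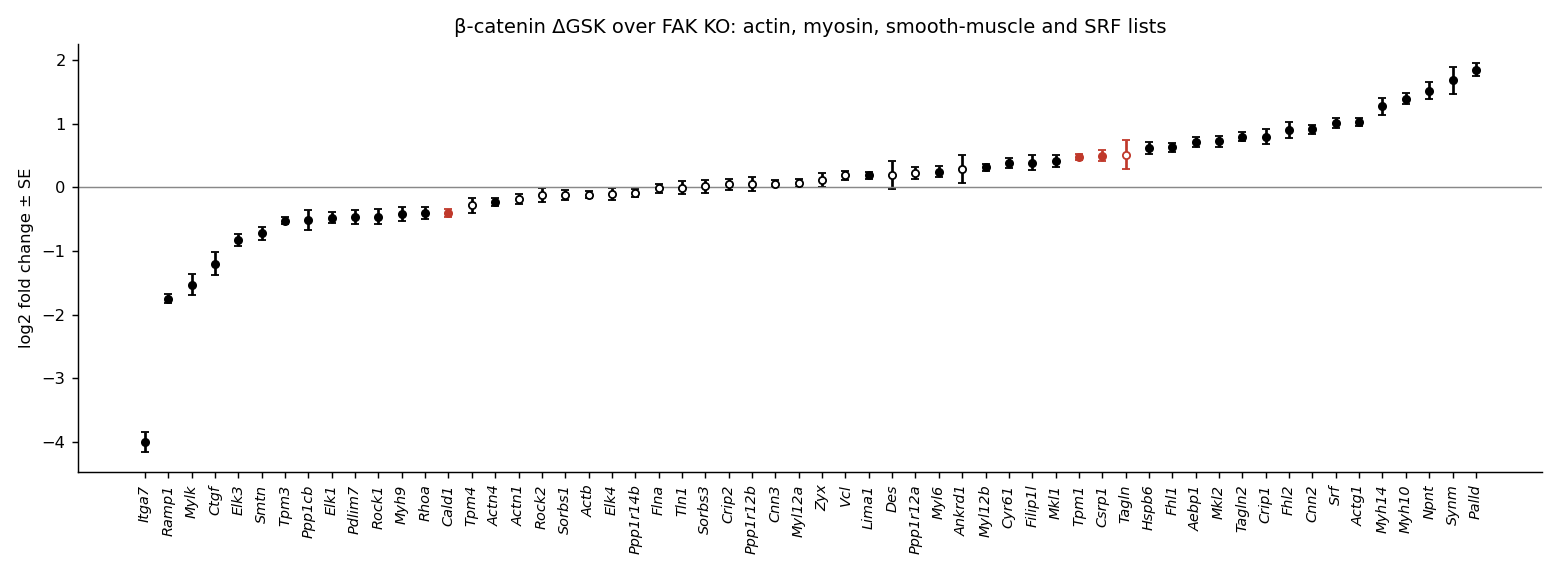
Log2 fold change of β-catenin ΔGSK over FAK KO (vertical axis, log2(FPKM + 0.1) scale) for 58 tested genes of the actin, LIM, tropomyosin, calponin, myosin, smooth muscle and SRF lists, with bars of 1 standard error. Members other than Csrp2 are red, and filled points have an adjusted p under 0.05. There are 23 higher and 15 lower genes, where 23.7% of all genes are higher and 34.4% lower, and they run from Itga7 at -4.01 to Palld at 1.85. Synm among the higher genes passed the FPKM filter only through β-catenin ΔGSK, and Itga7 and Mylk among the lower only through FAK KO.

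The summed markers of vascular smooth muscle and of pericytes were lowest in the line where Csrp2 was high, but single markers did not all follow the sum. The summed FPKM of 7 vascular smooth muscle markers, nearly all of it Smtn, was 14.6 to 17.4 in β-catenin ΔGSK against 22.0 to 28.1 in FAK KO, 53.9 to 65.2 in FAK-WT, 53.2 to 54.8 in FAK-R454 and 30.0 to 31.7 in KMF. At most 2 of the 7 were above 1 FPKM in any line (Smtn and Des), and 1 or 2 of the 7 were at 0 in every library of a line. Smtn was 14.1 FPKM in β-catenin ΔGSK against 23.3 in FAK KO, whereas Des was 1.66 against 1.43 and 0.836 in KMF, Myh11 0.536 against 0.413 and 0.0251 in KMF, and Synpo2 0.0521 against 0.0154. Des did not differ detectably between β-catenin ΔGSK and FAK KO (adjusted p = 0.479 from limma). Lmod1 was lower in β-catenin ΔGSK, at 0.00861 against 0.0291 FPKM, on 3 against 10 fragments. Pericyte markers summed to 1.49 to 1.89 FPKM in β-catenin ΔGSK against 3.84 to 4.43 in FAK KO, and to at least 6.23 in each library of the other lines. Of these, Mcam was 0.571 against 1.95, Rgs5 0.0801 against 1.08 and Cspg4 0.0217 against 0.347. Notch3 was instead 0.993 in β-catenin ΔGSK against 0.811 in FAK KO, with overlapping libraries. Rgs5 was lowest in KMF, at 0.0149 FPKM. Fibroblast markers summed to 30.8 to 45.1 in β-catenin ΔGSK and 41.8 to 49.8 in KMF, which overlapped, and to 90.0 to 127.0 in FAK KO. Most of each sum was Dcn, at 38.6, 33.1 and 99.0 FPKM in the same order. Pdgfra and Col1a1 were instead higher in KMF, at 9.06 against 3.03 FPKM in FAK KO and 2.46 against 1.33 (adjusted p = 1.20e-05 and 0.00481 from limma). Both were lower than FAK KO in β-catenin ΔGSK, at 0.815 and 0.194 FPKM. The sum of 12 skeletal and cardiac markers overlapped between β-catenin ΔGSK (23.8 to 30.9) and KMF (24.8 to 38.6), and was 19.0 to 20.5 in FAK-R454, 10.9 to 11.8 in FAK KO and 9.25 to 11.3 in FAK-WT. Most of it was the heart troponin Tnni3 in β-catenin ΔGSK, at 25.0 ± 3.95 FPKM against 7.14 ± 0.416 in FAK KO and 1.78 ± 0.187 in KMF (SD, n = 3 each), and the heart troponin Tnnt2 in KMF, at 27.4 FPKM against 3.76 in FAK KO and 0.303 in β-catenin ΔGSK. Endothelial markers summed to 6.68 to 7.64 in β-catenin ΔGSK against 18.0 to 19.3 in FAK KO and 29.6 to 30.0 in KMF. Most of each sum was Tek, at 6.75, 17.4 and 28.7 FPKM in the same order. Pecam1 was 0.286, 1.02 and 0.995 FPKM, while Tie1 ran the other way, at 0.165, 0.0764 and 0.0254. Haematopoietic markers summed to at most 12.3 in any library, nearly all of it Cd68. The 7 mesothelial and ovarian surface markers summed highest in β-catenin ΔGSK, to 908 to 1020 FPKM against 759 to 823 in FAK-WT, 692 to 706 in FAK-R454, 608 to 696 in FAK KO and 564 to 594 in KMF. Of these Wt1 was 226.8 FPKM in β-catenin ΔGSK against 97.8 in FAK KO and Krt19 644.3 against 441.0, while Msln was 47.8 against 70.2. The part of these cell types in the members' values was not tested.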

How the data were processed

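The authors deposited expression as FPKM for 35275 mouse genes in 14 poly(A)-selected paired-end libraries. The study's methods name TopHat2, the submitters' processing notes name STAR 2.5, CASAVA 1.8, DESeq2 and mm10, and the quantifier and strand setting are not given in the sources used here. FPKM times gene length gave whole fragments for 100% of values (tolerance 0.01), so counting error is known, and samples of a line differed by more than counting noise (chi-square per degree of freedom 3.33 to 46.81).

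Lines were compared 2 at a time by limma 3.58.1 (R 4.3.3, mean-variance trend) on log2(FPKM + 0.1), over genes with mean FPKM above 1 in either line, with Benjamini-Hochberg adjustment over all genes tested. A gene was called at an adjusted p under 0.05, at least 2-fold and above 1 FPKM in the higher line. Counts at any fold use the adjusted p alone. This scale understates changes of low genes. The procedure was tested on simulated data with 3 samples a line, for unchanged genes and for changes above 2-fold in expressed genes. Smaller changes, changes of genes below 1 FPKM and comparisons with 2 samples in a line were not simulated. Csrp2 was not tested against the β-catenin ΔGSK line. Members, lists and markers were chosen with earlier results of these data known. Named genes were all members, up to 3 called genes of each list by size of change, and the 5 nearest in pattern to Csrp2 and to Tagln. Family relatives of members and SRF partners were added after their values were seen. Alternatives were another pseudocount, no filter, median-of-ratios scaling, 1 fit of all lines, the replicate number as a block, voom on recovered fragments, chromosomes centred, and each library left out. The study's methods describe 3 FAK-R454 samples, and 2 were analysed here. Promoters came from RefSeq. Tables were handled in Python 3.11.15 with pandas 2.3.3.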

Additional observations from a re-analysis of the deposited data

Results flagged for a closer look

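These results differed between the line with wild-type FAK and the line with kinase-inactive FAK under the same contrast with FAK KO, by the direct test of FAK-WT against FAK-R454. The difference of Csrp1 was -0.32 on the log2 scale (adjusted p = 0.0327 from limma) and that of Cald1 -0.24 (adjusted p = 0.0374), with both genes higher in FAK-R454 in 2 of 2 libraries. Neither call held in most fits with 1 library left out, and the cause was not tested. In that comparison the median of all genes was -0.05, that of the genes of chromosome 1 (Csrp1) was -0.0829 and that of chromosome 6 (Cald1) -0.139.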

How the results depend on the processing

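Over the alternatives, 264 counts stayed within 1.5 times and 40 did not, and of the members' fold changes 220 kept their direction and side of the threshold, 20 lost and 7 gained a call, 5 turned sign and 2 moved by more than their spread. A pseudocount of 1 lowered the calls at 2-fold: 174 higher and 99 lower in FAK-WT over FAK KO (344 and 203 with 0.1), 108 and 37 in FAK-R454 over FAK KO (228 and 96), 535 lower in β-catenin ΔGSK over FAK KO (833), 274 and 292 in KMF over FAK KO (472 and 481), 26 and 50 in FAK-WT over FAK-R454 (82 and 88), and 269 and 143 in FAK-WT over KMF (452 and 250). With no filter, 3 members were higher in FAK-WT over FAK KO (1 with it), 4 in β-catenin ΔGSK over FAK KO (2, Csrp2 aside) and 2 in FAK-WT over KMF (1), and 0 were lower in FAK-WT over FAK-R454 (2). The fit of all 5 lines gave 1 lower member in FAK-WT over FAK KO (0), 1 in FAK-WT over FAK-R454 (2) and 2 in FAK-WT over KMF (1). Median-of-ratios scaling gave 1 lower member in FAK-WT over FAK-R454, and moved the median of all genes in β-catenin ΔGSK over FAK KO from -0.09 to 0.02. Centring chromosomes gave 0 lower members in KMF over FAK KO (1), 0 lower in FAK-WT over FAK-R454 and 0 higher in FAK-WT over KMF (1). Signs turned for Cald1 in FAK-WT over FAK KO (0.0099 by scaling, 0.13 by centring), for Tpm1 in KMF over FAK KO (-0.027 by centring, and from -0.0087 without KMF replicate 3 to 0.074 with other single libraries left out) and for Tpm1 in FAK-WT over FAK-R454 (0.016 by centring). The rise of Csrp2 was 6.38 with a pseudocount of 1 and 8.03 by voom. The cause of these shifts was not tested.

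With 1 library left out, FAK-R454 over FAK KO gave 148 to 256 higher genes, the fewest without FAK-R454 replicate 2, and 1 to 2 higher members. FAK-WT over FAK KO gave 1 to 2 higher members. FAK-WT over FAK-R454 gave 4 to 109 higher and 3 to 111 lower genes and 0 to 2 lower members. FAK-WT over KMF gave 0 to 2 higher members. The fewest genes in FAK-WT over FAK-R454 came without either FAK-R454 library, when the lone sample is assumed to vary like the FAK-WT samples. Same-numbered samples had deviation correlations between -0.245 and 0.445, and in no comparison were all above 0.1. In β-catenin ΔGSK over FAK KO they were 0.445, 0.28 and 0.076, all positive. Whether the numbers pair samples there cannot be told from these values, and the main fits do not use them. The replicate block gave 346 higher genes in FAK-WT over FAK KO, 232 in FAK-R454 over FAK KO, 110 in FAK-WT over FAK-R454 and 614 in β-catenin ΔGSK over FAK KO. It changed no call of a member except that of Tagln there, a gene that passed the FPKM filter only through the β-catenin ΔGSK line. For Tagln limma gave an adjusted p of 0.0275 with block and filter, 0.0790 with the filter alone and 0.146 with neither. At 0 to 20 fragments a library, counting error limits Acta2, Actg2, Cnn1 and Myl9.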
